A study of Macaca mulatta with 16 samples.

Results

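The miRNAs of the rhesus monkey (Macaca mulatta) fetal retina at 50 days of gestation were set side by side for 2 regions, temporal retina, where the fovea will form, and nasal retina. Of 339 miRNAs listed, the 283 with a mean of at least 5 TPM (transcript counts scaled to library size) over the 6 libraries were taken, and 56 fell under that level. Each region had 3 libraries, all from retina punched out near the optic nerve head of untreated fetuses, with the lens and pigment epithelium dissected away. A punch at this age took in more than the foveal anlage, so a temporal library holds retina outside the future fovea as well. The labels number the libraries of a region without tying a number to an animal, and p-values measure the spread between these libraries only.

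miRNAs are short RNAs cut from hairpin precursors. Loaded into an Argonaute protein, they pair with messenger RNAs, mainly through the seed near their 5′ end, and lower the messages' stability or translation. A hairpin can yield a mature miRNA from its 5′ arm (5p) and another from its 3′ arm (3p), and members of a family share a seed. Hairpins that lie close together on a chromosome are often made from one primary transcript, and others lie in introns of protein-coding host genes. In the mouse retina, let-7, miR-9 and miR-125 are known to move progenitors from early to late stages, and the miR-183/96/182 cluster is abundant in photoreceptors.

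The listed miRNAs summed to 309924, 353553 and 339994 TPM in temporal replicates 1, 2 and 3, against 178383, 358430 and 238494 TPM in nasal replicates 1, 2 and 3. Read totals are not in the table, so the depth of each library is unknown. Before testing, each library was divided by a size factor, the median ratio of its values to the geometric mean of all 6 libraries, and values below are these rescaled TPM. With TPM as deposited, the median miRNA was 0.52 higher in temporal on the log2 scale, against 0.01 after rescaling, so each difference is relative to the median miRNA. The principal component with 63.4% of the variance placed the temporal libraries at 8.04, 3.77 and 4.86 and the nasal libraries at -0.90, -10.4 and -5.34. The median miRNA had an SD between libraries of 0.21 in temporal and 0.26 in nasal on the log2 scale. Nasal replicate 2 stood apart from all other libraries in miR-126, miR-143-3p and miR-184, and temporal replicate 2 from the other temporal libraries in the miR-183/96/182 cluster and miR-100-5p.

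A few miRNAs made up most of the signal. The 12 most abundant held 63.5% of the listed TPM, and the 41 with a mean of at least 1000 TPM held 89.2%. Let-7i-5p, miR-7, miR-148a-3p and miR-92a-3p led, with means of 28320, 27060, 26356 and 23661 deposited TPM. Let-7i-5p belongs to a family that marks maturing tissue, and miR-7 is a miRNA of neurons and endocrine cells. None of these 4 was called different between the regions. Let-7i-5p had 24260, 18983 and 31328 rescaled TPM in the temporal libraries, against 27163, 34312 and 32030 in the nasal libraries, which overlap. For miR-7 the temporal libraries had 31140, 21806 and 25696 and the nasal libraries 15374, 32628 and 28892. Of the other 8, only miR-99b-5p was called. It had 6432, 6887 and 7755 rescaled TPM in temporal, all under the 9332, 11786 and 10855 of nasal, a log2 difference of -0.60 ± 0.16 (SE; limma adjusted p = 0.0279). The call of miR-99b-5p was lost without temporal replicate 1, temporal replicate 2, nasal replicate 2 or nasal replicate 3 (up to 0.115). MiR-9-5p, a miRNA of neural progenitors and neurons, had 23783, 15582 and 19973 rescaled TPM in temporal, all above the 11486, 12977 and 15410 of nasal. Its log2 difference of 0.56 (95% interval 0.10 to 1.03) had an adjusted p of 0.0720 in limma, over the threshold of 0.05, and passed it after scaling to the total (0.0142).

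Among miRNAs of at least 100 TPM, the 8 whose intervals lay nearest to a difference of 0 were miR-379-5p, miR-30d-5p, miR-484, miR-26a-5p, miR-532-5p, miR-21-5p, miR-30e-3p and miR-216a-5p. Their 95% intervals reached no further than 0.44 from 0 on the log2 scale. MiR-26a-5p, for instance, had 13110, 13364 and 10891 rescaled TPM in temporal, against 13741, 11231 and 12062 in nasal, a difference of 0.01 with an interval of -0.36 to 0.38.

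Between the regions, 80 of the 283 miRNAs (28.3%) differed at an adjusted p under 0.05 in limma. Of these, 38 (13.4%) were higher in temporal, by 1.48 to 3.44 times, and 42 (14.8%) were lower, by 1.45 to 3.78 times. At least 2-fold changes were seen in 13 of the higher and 22 of the lower ones. The 3 temporal libraries were all above the 3 nasal libraries for 62 miRNAs (21.9%) and all below them for 65 (23%). Only 1 called miRNA, miR-96, had libraries that overlapped. With TPM as deposited 77 were called higher and 3 lower, namely miR-342-5p, miR-505-5p and miR-320b, and scaling to the total gave 47 and 34. The count was 35, 56 and 52 without temporal replicate 1, 2 or 3, and 107, 57 and 36 without nasal replicate 1, 2 or 3. All 80 kept their sign in each of these 6 fits that left out 1 library. Because the punches are bulk tissue, fewer cells of a type and less RNA per cell cannot be told apart.

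**Figure D1:**
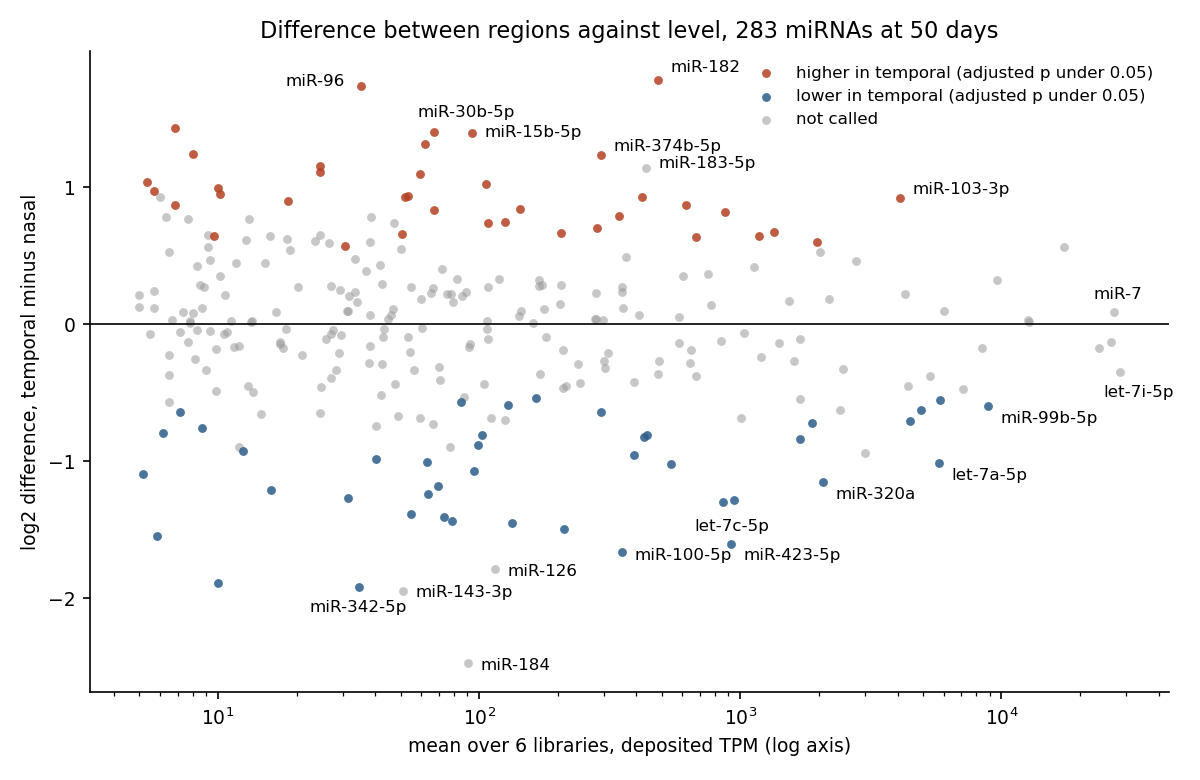
Log2 difference between regions (temporal minus nasal, vertical axis) against mean deposited TPM over 6 libraries (horizontal log axis) for 283 miRNAs, each a point coloured by its limma call. Calls in both directions occur both under and over 1000 TPM, and miR-184, miR-143-3p and miR-126 lie low without being called.

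Among the 12 called miRNAs with the largest rise in temporal and libraries that did not overlap, miR-182 came first. It had 819, 268 and 971 rescaled TPM in the temporal libraries, against 137, 234 and 161 in the nasal libraries (3.44-fold; log2 difference 1.78 ± 0.45 SE, limma adjusted p = 0.0251). Temporal replicate 2 was far under the other temporal libraries and only just above nasal replicate 2. MiR-96, from the same cluster, had 58.7, 17.7 and 74.5 in temporal and 10.3, 17.9 and 9.58 in nasal (3.34-fold; adjusted p = 0.0363). MiR-183-5p, the third of the cluster, had 670, 225 and 816 in temporal and 184, 297 and 209 in nasal, a log2 difference of 1.14 with an adjusted p of 0.0890 in limma. These are sensory-organ miRNAs, and as a share of all listed TPM the cluster took 0.545, 0.196 and 0.654% of the temporal libraries and 0.126, 0.171 and 0.117% of the nasal ones. MiR-183-5p was called without nasal replicate 2 (0.0489), without temporal replicate 2 (0.00567) and after scaling to the total (0.0416). Without temporal replicate 2 all 3 members were called, at a median of 2.36, in a fit that called 26 of all 283 miRNAs higher. In the main fit 2 of the 3 were called, beside 13.4% higher among all 283. The calls of miR-182 and miR-96 were lost without temporal replicate 1, temporal replicate 3 or nasal replicate 3, with adjusted p up to 0.115 for miR-182 and 0.155 for miR-96.

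The messages of these regions are given as the authors' mean signal in CPM (read counts scaled to library size), without a spread. The 7 neural retina genes in the table summed to 951 in temporal and 1014 in nasal, and 6 of them were higher in nasal. The lowest was ATOH7, at 0.755 in temporal and 2.08 in nasal. All 6 photoreceptor marker genes were higher in temporal, summing to 660 against 503 in nasal. Recoverin (RCVRN), a calcium sensor of photoreceptors, was at 20.8 against 15.0, and OTX2, the factor that specifies them, at 126 against 74.3. Their part in the miR-182 and miR-96 difference was not tested.

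MiR-15b-5p, a member of the miR-15/16 family that restrains the cell cycle in human cells, had 125, 110 and 135 rescaled TPM in temporal, against 42.8, 42.0 and 54.7 in nasal. The groups stand well apart (2.63-fold; log2 difference 1.39 ± 0.19 SE, limma adjusted p = 0.00237). MiR-30b-5p, of the miR-30 family, had 102, 80.9 and 83.7 in temporal and 45.7, 22.3 and 34.2 in nasal (2.65-fold; adjusted p = 0.00748). MiR-454-3p, from an intron of SKA2, a kinetochore gene, had 83.4, 83.9 and 73.6 in temporal and 38.3, 25.0 and 32.8 in nasal (2.49-fold; adjusted p = 0.00490). MiR-374b-5p, from an X-linked pair with miR-421, had 412, 408 and 305 in temporal and 202, 124 and 156 in nasal (2.35-fold; adjusted p = 0.00634). Regions do not overlap in any of these, and all 4 stayed called without each library in turn.

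MiR-20a-5p, of the miR-17 family, had 37.6, 30.2 and 25.9 rescaled TPM in temporal and 13.3, 14.3 and 13.7 in nasal, and miR-494-3p, of a large imprinted cluster, had 11, 11 and 9.20 in temporal and 4.42, 4.47 and 2.74 in nasal. The other miRNAs of this group were miR-369-3p and miR-487b-3p of the same cluster, miR-106b-5p, miR-107-3p and miR-365-3p, with log2 differences of 1.02 to 1.43. Several are scarce: miR-369-3p had 10.1, 10.3 and 7.53 rescaled TPM in temporal, against 2.95, 2.68 and 2.74 in nasal, and miR-365-3p averaged 5.33 deposited TPM. Of the 12, all but miR-182, miR-487b-3p, miR-365-3p and miR-107-3p stayed called in every fit without 1 library. MiR-487b-3p had 32.1, 32.4 and 28.5 in temporal and 23.6, 8.04 and 12.3 in nasal, and stayed called only without nasal replicate 1 (adjusted p up to 0.129). MiR-365-3p was lost without temporal replicate 1, temporal replicate 3 or nasal replicate 3 (up to 0.0751) and miR-107-3p without temporal replicate 1 or nasal replicate 3 (up to 0.0615).

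On the lower side, miR-342-5p led. It comes from an intron of EVL, an actin regulator, and had 19.2, 14.7 and 12.6 rescaled TPM in the temporal libraries, against 70.8, 57.2 and 54.7 in the nasal libraries. It was 3.78-fold lower in temporal, with a log2 difference of -1.92 ± 0.22 (SE; limma adjusted p = 0.00168). MiR-423-5p, at a far higher level, had 411, 502 and 479 in temporal and 1025, 1820 and 1490 in nasal (3.04-fold lower; adjusted p = 0.00237). MiR-505-5p had 2.75, 2.94 and 2.51 in temporal and 10.3, 9.83 and 9.58 in nasal (2.92-fold lower; adjusted p = 0.00168). It averaged 5.83 deposited TPM and reached the 5 TPM level only through its nasal libraries, so its values and their spread rest on small whole numbers. MiR-485-5p, of the imprinted cluster, had 38.5, 44.1 and 43.5 in temporal and 109, 114 and 116 in nasal (2.66-fold lower; adjusted p = 0.00168). Every nasal library was at least 2 times the highest temporal one for these 4.

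Let-7c-5p had 458, 626 and 483 rescaled TPM in temporal, against 1220, 1281 and 1329 in nasal (2.46-fold lower; log2 difference -1.30 ± 0.16 SE, limma adjusted p = 0.00168). MiR-204-3p, from the hairpin in TRPM3 whose other arm is a miRNA of pigment epithelium and lens, had 22.0, 37.5 and 34.3 in temporal and 66.4, 94.7 and 86.2 in nasal (adjusted p = 0.00650). MiR-100-5p had 90.7, 408 and 116 in temporal and 559, 538 and 460 in nasal (adjusted p = 0.0370). Here temporal replicate 2 lay near the nasal libraries and far from the other temporal ones. Both arms of miR-6529 were in this group, miR-6529-5p with 488, 612 and 651 in temporal and 1456, 1348 and 1444 in nasal and miR-6529-3p with 96.2, 133 and 107 in temporal and 229, 398 and 344 in nasal. MiR-320b had 53.2, 47.1 and 35.1 in temporal and 198, 84.9 and 108 in nasal. MiR-92b-5p had 57.7, 81.7 and 61.1 in temporal and 91.4, 287 and 230 in nasal, and miR-7205-5p, the scarcest but for miR-505-5p, had 0.917, 4.41 and 5.86 in temporal and 5.90, 25.0 and 19.2 in nasal. In both, nasal replicate 1 lay nearest the temporal libraries. Of the 12, miR-7205-5p, miR-100-5p, miR-92b-5p and miR-320b lost their call when a library was left out. For miR-7205-5p this held for every library but nasal replicate 1 (adjusted p up to 0.170). For miR-100-5p and miR-92b-5p it held for temporal replicate 1, temporal replicate 3 and nasal replicate 3 (up to 0.155 and 0.124), and for miR-320b for temporal replicate 3 (0.0554). MiR-100-5p was also not called after quantile normalisation (adjusted p = 0.0915).

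**Figure D2:**
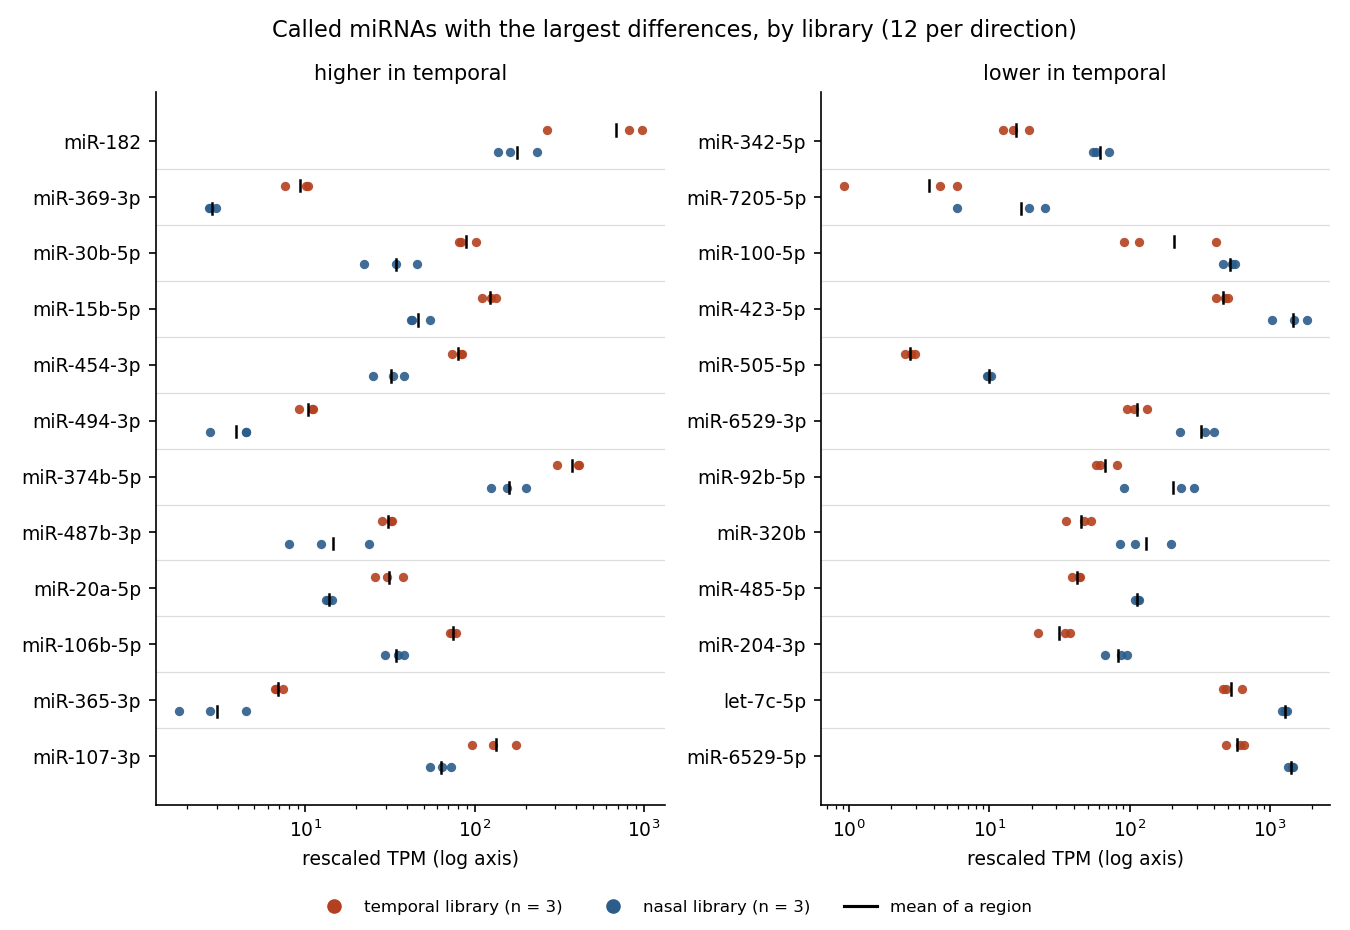
Rescaled TPM (log axis) in each library for the 12 called miRNAs per direction with the largest log2 difference; each dot is 1 library (temporal above nasal in a row, 3 of each) and black ticks are region means. The dots of the regions do not overlap in any row, with narrow gaps in miR-182, where temporal replicate 2 has 268 and nasal replicate 2 has 234, in miR-92b-5p (81.7 in temporal replicate 2 and 91.4 in nasal replicate 1) and in miR-7205-5p (5.86 in temporal replicate 3 and 5.90 in nasal replicate 1).

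Families sharing a seed were then taken as groups. The miR-17 family (miR-17, miR-20, miR-93 and miR-106) is known for driving proliferation in mouse and human cells. Of its 6 members, 5 were called higher in temporal and none lower, beside 13.4% higher among all 283 miRNAs. The temporal libraries were all above the nasal ones for each of the 6, beside 21.9% of all 283. The median log2 difference was 0.87, against 0.01 over all 283 miRNAs. MiR-20b-5p, at 0.60, was the member that did not pass (limma adjusted p = 0.0947). MiR-17-5p had 615, 480 and 436 rescaled TPM in temporal and 249, 271 and 278 in nasal. MiR-93-5p, the most abundant member, had 1089, 1081 and 936 in temporal and 565, 541 and 662 in nasal. The family took 0.808, 0.819 and 0.650% of the listed TPM in the temporal libraries, against 0.397, 0.363 and 0.396% in the nasal ones, which do not overlap. Of the 5 calls, that of miR-106a-5p was lost without nasal replicate 3 or any 1 temporal library (adjusted p up to 0.130). Reads of miR-17 and miR-106a, or of miR-20a and miR-20b, can match either, and the sources do not say how such reads were divided.

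All 3 tested members of the miR-15/16 family were higher in temporal: miR-15b-5p, miR-15a-5p and miR-16-5p, at a median of 0.97. Among all 283 miRNAs, 13.4% were called higher. MiR-16-5p had 218, 163 and 137 rescaled TPM in temporal, against 124, 77.8 and 87.6 in nasal. MiR-15a-5p averaged only 5.67 deposited TPM, and it lost its call after quantile normalisation (adjusted p = 0.116). The call of miR-15a-5p was lost without temporal replicate 1, temporal replicate 3 or nasal replicate 3 (up to 0.106). That of miR-16-5p was lost without temporal replicate 1, temporal replicate 2, nasal replicate 2 or nasal replicate 3 (up to 0.124). Both members of the miR-103/107 family, which lie in introns of the pantothenate kinase genes, were higher. MiR-103-3p had 5978, 4512 and 4418 rescaled TPM in temporal, against 2232, 2709 and 2910 in nasal (1.89-fold; limma adjusted p = 0.00748). It was the most abundant miRNA called higher.

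In the miR-30 family all 5 members had a positive difference, with a median of 0.46. MiR-30b-5p and miR-30a-5p were called, 2 of 5 beside 13.4% called higher among all 283 miRNAs. MiR-30a-5p had 2679, 1864 and 2172 rescaled TPM in temporal and 1453, 1519 and 1410 in nasal, and its call was lost without temporal replicate 1, temporal replicate 3, nasal replicate 2 or nasal replicate 3 (adjusted p up to 0.112). With the replicate number as a block, miR-30c-5p was called too (adjusted p = 0.0430, against 0.0687 without). MiR-30d-5p, the most abundant, had a difference of 0.03. Both members of the miR-23 family were called higher as well. MiR-23a-3p had 24.7, 24.3 and 18.4 in temporal and 14.7, 10.7 and 9.58 in nasal. MiR-23b-3p had 81.6, 83.1 and 76.1 in temporal and 59.0, 31.3 and 47.9 in nasal, and its call held only without nasal replicate 1 (adjusted p up to 0.115). That of miR-23a-3p was lost without temporal replicate 1, temporal replicate 2 or nasal replicate 3 (up to 0.106).

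**Figure D3:**
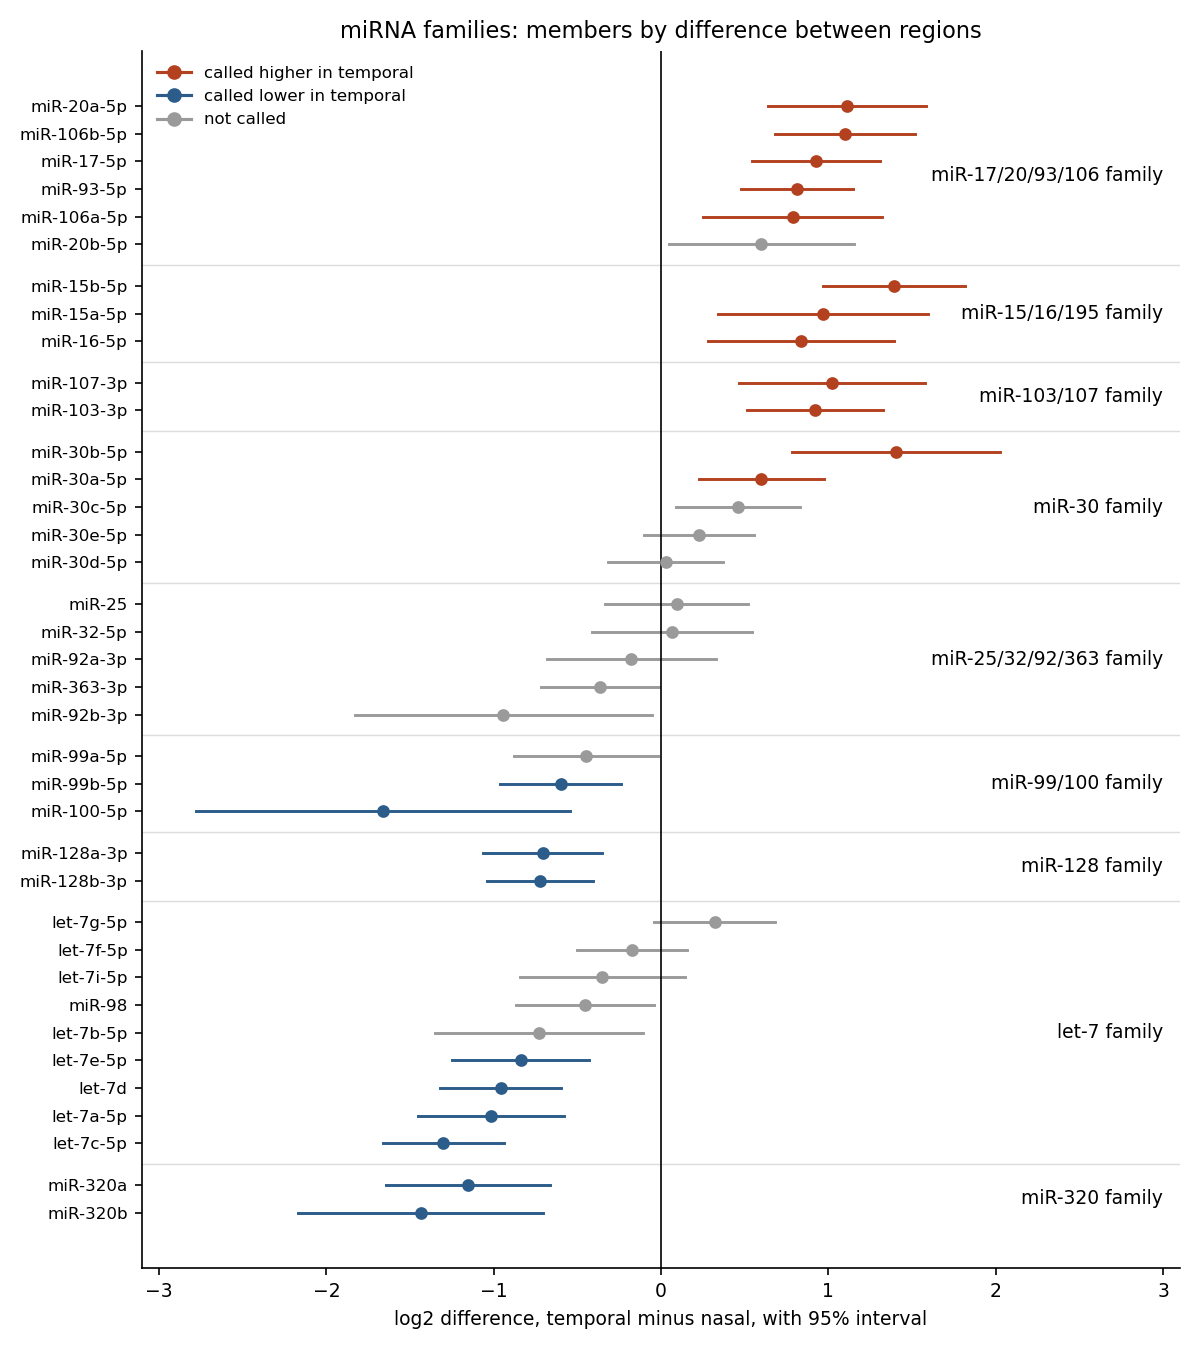
Log2 difference between regions with its 95% interval (horizontal axis) for the members of 9 seed families, grouped and coloured by call. The miR-17, miR-15/16 and miR-103/107 families lie to the right of 0, let-7 spreads from 0.32 for let-7g-5p to -1.30 for let-7c-5p, and miR-25 and its relatives straddle 0.

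The let-7 family, which marks the shift of progenitors to later stages, had 4 of 9 members lower in temporal and 0 higher, beside 14.8% lower among all 283 miRNAs, with a median of -0.73. With TPM as deposited the median was -0.18 and 0 were lower, and without nasal replicate 1, 5 were lower. Members called lower were let-7a-5p, let-7c-5p, let-7d and let-7e-5p. Let-7a-5p, the most abundant of them, had 3733, 4069 and 3696 rescaled TPM in temporal, against 5878, 8992 and 8793 in nasal (2.02-fold lower; limma adjusted p = 0.00705). Let-7e-5p had 1130, 1262 and 1250 in temporal and 1693, 2539 and 2376 in nasal, and its call was lost without temporal replicate 1 or nasal replicate 3 (up to 0.0615). Let-7f-5p and let-7i-5p overlapped between the regions. Let-7g-5p lay the other way, with 11742, 9244 and 9692 in temporal and 7410, 8473 and 8616 in nasal, a difference of 0.32 (adjusted p = 0.160). It was called higher after scaling to the total (0.0383) and after quantile normalisation (0.00740). Let-7i-5p and the other uncalled members held most of the family's TPM, and the whole family took 17.7, 16.2 and 19.1% of the listed TPM in temporal and 19.9, 20.4 and 19.4% in nasal. Mature let-7 miRNAs differ at few bases, so reads may have been shared among them.

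Other families lower in temporal were small. Among all 283 miRNAs, 14.8% were called lower. Both miR-320 members were called, miR-320a with 1096, 1527 and 1274 rescaled TPM in temporal and 2143, 3326 and 3309 in nasal. In mouse, this hairpin is known to mature without Drosha. Both miR-128 members, made in neurons from introns of R3HDM1 and ARPP21, were lower at -0.71 and -0.72. MiR-128a-3p had 3142, 3546 and 3507 in temporal and 4724, 6103 and 5897 in nasal, and its call was lost without temporal replicate 1, nasal replicate 2 or nasal replicate 3 (adjusted p up to 0.0693). These pairs can share reads. Of the miR-99/100 family, miR-99b-5p and miR-100-5p were called and miR-99a-5p had -0.45 (adjusted p = 0.105). The median of this family was -0.60, and -0.04 with TPM as deposited.

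No member of the miR-25/92 family was called in either direction, at a median of -0.18 that turned to 0.38 with TPM as deposited. The median was -0.09 without nasal replicate 2, -0.04 without nasal replicate 3 and -0.05 after scaling to the total. Without nasal replicate 1 it was -0.41, and miR-92a-3p, miR-92b-3p and miR-363-3p were called lower (adjusted p = 0.0488, 0.00201 and 0.0488). That fit called 59 of all 283 miRNAs lower. MiR-92a-3p had 19914, 22650 and 21443 rescaled TPM in temporal, against 17440, 27152 and 29591 in nasal. MiR-92b-3p had 1537, 2574 and 1699 in temporal and 1897, 5494 and 4589 in nasal, a difference of -0.94, and was called with the replicate block (adjusted p = 0.0232, against 0.103 without). In the hairpin cluster of miR-106b, miR-93 and miR-25, miR-106b-5p and miR-93-5p were called higher, while miR-25 was not called, with 5334, 5982 and 6483 in temporal and 4434, 5719 and 6725 in nasal.

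Several pairs of near relatives had 1 member called and 1 not. In the miR-26 family, miR-26b-5p had 751, 897 and 675 rescaled TPM in temporal, against 547, 430 and 512 in nasal (log2 difference 0.64, limma adjusted p = 0.0258), while the far more abundant miR-26a-5p stood at 0.01. The call of miR-26b-5p was lost without temporal replicate 1, temporal replicate 2, nasal replicate 2 or nasal replicate 3 (up to 0.0833). In the miR-27 family, miR-27b-3p had 1743, 1497 and 1447 in temporal and 1122, 837 and 989 in nasal (0.67), and miR-27a-3p, made from another hairpin, had 37.6, 36.8 and 29.3 in temporal and 59.0, 50.0 and 41.1 in nasal (-0.51, adjusted p = 0.104). The call of miR-27b-3p was lost without temporal replicate 1, nasal replicate 2 or nasal replicate 3 (up to 0.0699). Of 4 tested members of the miR-130 family, miR-454-3p was called and the others ran from -0.11 to 0.24. MiR-374b-5p was called and miR-374a-5p stood at 0.29 (adjusted p = 0.390). Whether the members of a pair differ from each other was not tested.

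No member was called in the miR-181 or the miR-148 family. MiR-181a-5p, known from neurons and lymphocytes, had 5931, 3669 and 3970 rescaled TPM in temporal and 4946, 3014 and 3662 in nasal, which overlap, and the 4 members lay between -0.04 and 0.22. MiR-148b-3p, at 0.42, had libraries that did not overlap (adjusted p = 0.0725), and it was called after scaling to the total (0.0351). In the cluster of miR-216a, miR-216b and miR-217, abundant in pancreas, miR-217b had 2421, 2261 and 2003 in temporal and 1251, 1689 and 1738 in nasal (0.53, adjusted p = 0.0507) and was called after scaling to the total (0.0140). MiR-216b had 1928, 2439 and 2155 in temporal and 2605, 2645 and 2926 in nasal, the other way (-0.33, adjusted p = 0.118).

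Clusters on the genome were read from the neighbourhood of hairpins within 10 kb in RefSeq's table of the rhesus assembly T2T-MMU8v2.0, where 271 of the 283 miRNAs matched a hairpin. Of 30 clusters with at least 2 hairpins that gave members, 9 had calls in the higher direction only, 8 in the lower direction only, 2 in both and 11 none. The cluster of let-7e, miR-99b and miR-125a had all 6 tested arms below 0 and 4 called lower, let-7e-5p, miR-99b-5p, miR-125a-5p and miR-125a-3p. Among all 283 miRNAs, 14.8% were called lower. The 6 had a median of -0.58, and -0.02 with TPM as deposited. MiR-125a-3p had 19.2, 17.7 and 20.9 rescaled TPM in temporal, against 48.7, 42.9 and 52.0 in nasal (log2 difference -1.27, limma adjusted p = 0.00409). MiR-125a-5p had 4787, 4967 and 4338 in temporal and 5879, 7094 and 7824 in nasal. Its call held only without nasal replicate 1 (adjusted p up to 0.140), and quantile normalisation ended it (0.264). As a share of listed TPM the cluster took 4.51, 5.21 and 4.87% in temporal, against 6.63, 6.88 and 6.63% in nasal.

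One cluster with calls in both directions was that of miR-15b and miR-16-2 in SMC4, a condensin gene. MiR-15b-5p and miR-15b-3p were called higher, while miR-16-2-3p was lower, with 258, 347 and 327 rescaled TPM in temporal and 438, 599 and 619 in nasal (log2 difference -0.82, limma adjusted p = 0.0175). The call of miR-16-2-3p was lost without temporal replicate 1 or nasal replicate 3 (up to 0.0783). The call of miR-15b-3p, at 9.67 deposited TPM on average, held only without nasal replicate 1 (up to 0.112).

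On the X chromosome, the 4 tested miRNAs of a primate cluster in the region of FMR1 all had negative differences, with a median of -0.61 that shrank to -0.09 with TPM as deposited. Called lower was miR-892a, with 25.7, 22.8 and 32.6 rescaled TPM in temporal and 35.4, 57.2 and 76.6 in nasal (log2 difference -0.98, limma adjusted p = 0.0403). Nasal replicate 1 lay just above the highest temporal library, and of the fits that left out 1 library the call held only without that replicate (up to 0.151 in the others). It was also lost after quantile normalisation (0.0616). Without nasal replicate 1 all 4 members were called lower, at a median of -0.89, in a fit that called 59 of all 283 miRNAs lower. None of the 4 was called in the other fits that left out 1 library. In the main fit 14.8% of all 283 were called lower. In the X-linked pair of miR-374b and miR-421, both arms of miR-374b were called higher and miR-421 stood at 0.16 (adjusted p = 0.608). The call of miR-374b-3p was lost without nasal replicate 3 or any 1 temporal library (up to 0.0833). The X-linked cluster of miR-106a, miR-18b, miR-20b and miR-363 also holds miR-19b and miR-92a hairpins. In it, miR-106a-5p and miR-19b (0.66, limma adjusted p = 0.0388) were called higher. MiR-19b was matched here to the hairpin mir-19b-2, but its name gives no locus, so it need not come from this cluster. The call of miR-19b was lost without temporal replicate 1, temporal replicate 2, nasal replicate 2 or nasal replicate 3 (up to 0.125). MiR-363-3p lay the other way, with 445, 374 and 443 in temporal and 472, 580 and 576 in nasal (-0.37, adjusted p = 0.106).

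The other cluster with both directions was that of miR-379 to miR-656, with 5 of 29 tested members higher and 3 lower. It belongs to the imprinted DLK1-DIO3 region at human 14q32, whose miRNAs are expressed from the maternal chromosome and abundant in embryo and brain. Of the region's 38 tested members, which include miR-432-5p from a separate neighbouring cluster, 5 were higher, 4 were lower and 29 were not called, with a median of 0.04. Of all 283 miRNAs, 13.4% were called higher and 14.8% lower. With TPM as deposited, 10 of the 38 were higher and 0 lower, with a median of 0.59. Higher were miR-369-3p, miR-494-3p, miR-487b-3p, miR-382-3p and miR-409-5p, and lower were miR-485-5p, miR-432-5p, miR-382-5p and miR-654-5p. MiR-432-5p had 64.2, 75 and 74.5 rescaled TPM in temporal, against 139, 132 and 126 in nasal. MiR-409-5p had 69.7, 53.7 and 67.8 in temporal and 35.4, 33.1 and 30.1 in nasal, and its call was lost without temporal replicate 1 or nasal replicate 3 (up to 0.0590). MiR-654-5p and miR-382-5p were close to the threshold (adjusted p = 0.0498 and 0.0487). Neither was called with the replicate block (0.0603 and 0.0639) or after scaling to the total (0.155 and 0.204). MiR-654-5p was called only without nasal replicate 1 (up to 0.160) and miR-382-5p only without nasal replicate 2 (up to 0.158). With the block, miR-410-3p was called higher (0.0443) and miR-485-3p and miR-543-3p lower (0.0292 and 0.0198). Abundant members of the region that were not called include miR-370-3p, at 1696 deposited TPM and a difference of -0.54 (called without temporal replicate 3, 0.0373), and miR-381-3p, at 1033 deposited TPM and -0.06. A further 11 listed members of the region fell under 5 TPM.

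Arms were paired by name, and their difference within a library does not depend on how the libraries were scaled beyond the pseudocount. Where a name, such as let-7a or miR-181a, matched several loci, its arms were counted as 1 hairpin but need not share one. Both arms were tested for 62 hairpins, and the difference between regions was not the same in the arms of 32 (51.6%) in limma on the 5p minus 3p log2 values. In 28 hairpins the arms had opposite signs. Those with both arms called were 2 in opposite directions, miR-342 and miR-382, and 5 in the same direction. The share rests on fits over 62 hairpins only, and it was 21 of 62 without temporal replicate 2.

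MiR-342 had the largest contrast. While miR-342-5p was lower in temporal, miR-342-3p had 740, 642 and 859 rescaled TPM in temporal, against 581, 274 and 420 in nasal (1.82-fold higher; limma adjusted p = 0.0409). The 5p minus 3p log2 value differed between regions by -2.78 (adjusted p = 4.50e-07). The call of miR-342-3p held only without nasal replicate 1 (up to 0.124), while the contrast of the arms was called without each library in turn (up to 0.000630). MiR-382 had 86.2, 119 and 109 of its 5p arm in temporal and 178, 136 and 160 in nasal, against 53.2, 70.6 and 70.3 of its 3p arm in temporal and 32.4, 31.3 and 35.6 in nasal. The 5p arm was 1.62, 1.69 and 1.55 times the 3p arm in temporal, against 5.50, 4.34 and 4.50 times in nasal, a contrast of -1.53 on the log2 scale (adjusted p = 2.58e-05). In miR-369 these ratios were 1.00, 1.21 and 1.44 in temporal and 6, 3.33 and 4.50 in nasal. They are coarse, since miR-369-3p averaged 6.83 deposited TPM and was lowest in nasal.

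In the 4 further hairpins with the largest contrasts, only 1 arm was called. MiR-505 had a contrast of -1.73, its 5p arm lower and its 3p arm at 0.18. MiR-369 had one of -1.59, its 3p arm higher and its 5p arm at -0.16. MiR-296 had 1.59, with miR-296-3p lower (72.4, 72.8 and 80.3 rescaled TPM in temporal, 125, 145 and 127 in nasal) and miR-296-5p at 0.78 (adjusted p = 0.0567, and 0.0261 with the replicate block). MiR-106b had 1.34: its 5p arm was at 73.3, 78.0 and 72.0 in temporal and 35.4, 29.5 and 38.3 in nasal, and its far more abundant 3p arm at 1005, 1023 and 1185 in temporal and 1034, 1429 and 1355 in nasal. Adjusted p ranged from 1.03e-05 to 0.000232 over these 4, and each was called without every library in turn (up to 0.0101) and with the replicate block (up to 0.00637). MiR-505-5p, miR-369-3p and miR-296-5p averaged 5.83, 6.83 and 6.33 deposited TPM, so the contrasts of their hairpins rest on small whole numbers. By arm, of 125 miRNAs named 5p, 17 were higher and 20 lower, and of 124 named 3p, 18 were higher and 17 lower. Both are near the 13.4% higher and 14.8% lower among all 283 miRNAs.

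**Figure D4:**
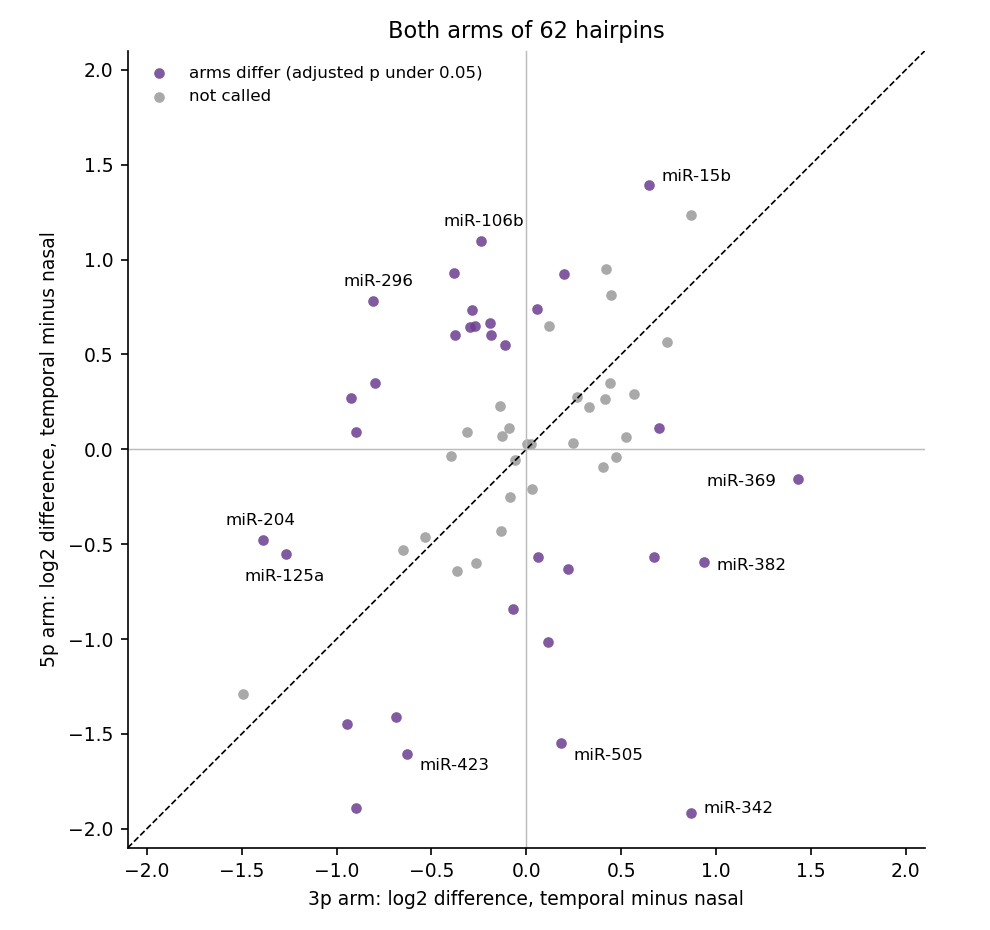
Log2 difference between regions of the 5p arm (vertical axis) against the 3p arm (horizontal axis) for 62 hairpins, each a point, purple where the arms differ in limma; on the dashed line both arms change alike. MiR-342, with -1.92 for 5p and 0.87 for 3p, lies furthest from the line.

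Many miRNAs lie in introns of genes whose messages were measured in the same regions. For 58 pairs of a miRNA and its host, the authors' mean mRNA signal gave a host value, and 56 of the miRNAs lay inside the host in RefSeq. None of the 37 hosts had a log2 ratio beyond 1, and their range was -0.85 to 0.29, with no spread to test it. The median over all genes of at least 1 CPM was -0.02. Among the 21 pairs whose miRNA was called, the host leaned the same way in 11, beside 26 of all 56 pairs. Over the 56 pairs, miRNA and host log2 values correlated at 0.04 (Pearson r). SMC4, host of miR-15b and miR-16-2, was at 828 CPM in temporal against 677 in nasal. SKA2, host of miR-454, was at 62.5 in temporal against 53.3 in nasal, and PANK3, which holds a miR-103 hairpin, at 770 against 688, so both were on the side of their miRNAs. MCM7, the replication helicase gene that holds miR-106b, miR-93 and miR-25, was at 128 against 154, against the direction of miR-106b-5p and miR-93-5p. EVL, whose miR-342 arms go opposite ways, was at 96.2 against 107. Of 16 hosts with at least 2 measured miRNAs, 12 had members of both signs.

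Markers of cell types give the rest of the picture. Of 9 neuronal miRNAs, 1 was higher (miR-9-3p), 2 were lower (miR-129-5p and miR-128a-3p) and 6 were not called, beside 13.4% higher and 14.8% lower among all 283 miRNAs. MiR-9-3p had 167, 138 and 141 rescaled TPM in temporal, against 106, 67.9 and 94.4 in nasal, and its call held only without nasal replicate 1 (adjusted p up to 0.112). MiR-129-5p had 446, 310 and 374 in temporal and 976, 652 and 683 in nasal (log2 difference -1.02, limma adjusted p = 0.00941), and was called without every library in turn. The brain miRNA miR-124a-3p had 331, 172 and 173 in temporal and 255, 124 and 171 in nasal, which overlap. Of the pair known from pigment epithelium, miR-204-5p had 5606, 7169 and 5097 in temporal and 8047, 7890 and 8684 in nasal, a difference of -0.48 (adjusted p = 0.0687, and 0.0392 without temporal replicate 2). MiR-211 had 76.1, 92.0 and 76.1 in temporal and 90.0, 188 and 133 in nasal, and was called with the replicate block (adjusted p = 0.0403, against 0.0874 without it) and without nasal replicate 1 (0.00819). Pigment cell messages summed to 64.7 CPM in temporal and 78.9 in nasal, 5 of 8 being higher in nasal. Their part in these values was not tested.

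Nasal replicate 2 stood apart in miRNAs known from other tissues. Nasal replicate 2 had 492 rescaled TPM of miR-126, the miRNA of endothelium, against 36.9 and 32.9 in the other nasal libraries, while the temporal ones had 24.7, 30.9 and 17.6. For miR-143-3p, of smooth muscle and mural cells, it had 257, against 2.95 and 4.11 in the other nasal libraries, and the temporal ones had 2.75, 3.68 and 4.18. For miR-184, abundant in lens and cornea, it had 436, against 4.42 and 27.4, with 1.83, 19.1 and 5.86 in temporal. None of these was called in the unblocked fit, with adjusted p of 0.172, 0.334 and 0.223. With the replicate block miR-184 was called (adjusted p = 0.0232), at a difference of -2.48, with nasal replicate 2 far above the other 5 libraries. Its difference was -0.76 without nasal replicate 2 and -3.95 without nasal replicate 1, where it was also called (0.0172). Leaving out nasal replicate 2 gave 57 called miRNAs, 53 of them among the 80.

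In the mRNA means, all 6 mural genes were higher in nasal, summing to 133 CPM in temporal and 172 in nasal, and so were all 4 fibroblast genes, at 1.84 and 25.5, with the collagen gene COL3A1 at 0 in temporal and 13.6 in nasal. Their part in the values of nasal replicate 2 was not tested, since the means hold no libraries. The endothelial sum was 903 in temporal and 624 in nasal, nearly all of it KDR at 854 and 582, a gene also expressed by retinal progenitors. Of the 7 endothelial genes, 3 were higher in temporal, including the receptor gene FLT1 at 46.0 and 34.6, and 4 were higher in nasal, including PECAM1 at 0.532 and 2.01 and the cadherin gene CDH5 at 0 and 1.24. Of 7 lens and cornea genes, 4 were higher in temporal and 3 in nasal, with sums of 39.2 in temporal and 34.6 in nasal that were mostly the crystallin CRYAA, at 36.3 and 31.6. MiR-486-5p, a red cell miRNA from ANK1, was called lower, with 42.2, 35.3 and 47.7 rescaled TPM in temporal and 60.5, 106 and 93.1 in nasal (limma adjusted p = 0.0221). It lost the call without temporal replicate 1, temporal replicate 2 or nasal replicate 3 (up to 0.0841). Globin and ALAS2 messages of red cells summed to 0.320 CPM in temporal and 6.23 in nasal. Their part in the miR-486-5p difference was not tested. Of the other tissue checks, liver miR-122a-5p and endocrine miR-375 were both under 5 TPM, and the immune miRNAs miR-146a-5p and miR-155 were not called, at -0.66 and -0.67, the first of them passing without nasal replicate 3 (0.0407). All 4 leukocyte genes were higher in nasal, summing to 5.43 CPM in temporal and 9.22 in nasal. Their part in the immune miRNA values was not tested.

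**Figure D5:**
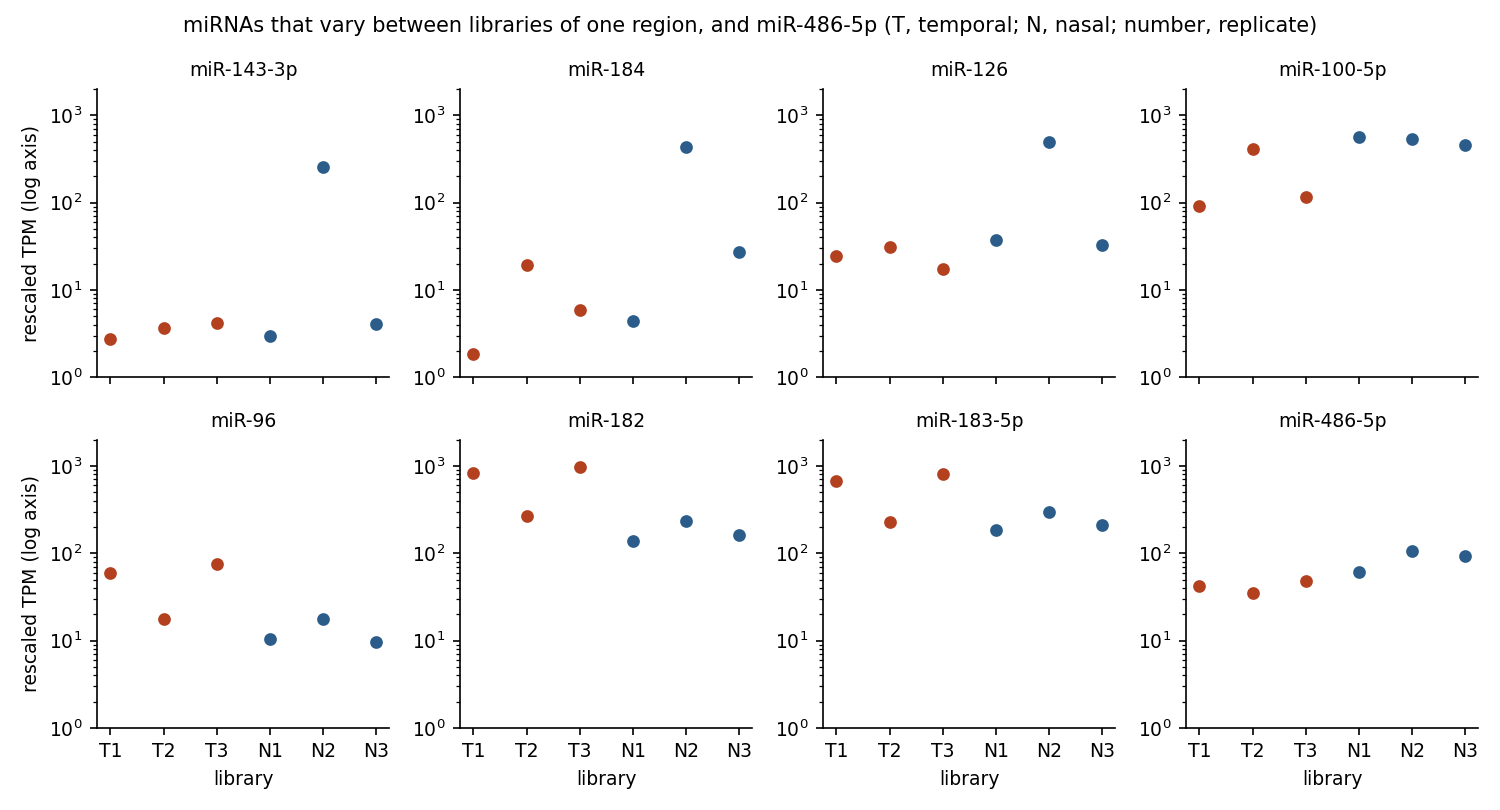
Rescaled TPM (log axis) of 8 miRNAs in each library (T, temporal; N, nasal; number, replicate), 1 dot per library. Nasal replicate 2 stands alone in miR-143-3p, miR-184 and miR-126, and temporal replicate 2 lies away from the other temporal libraries in miR-100-5p and in the miR-183/96/182 cluster.

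The largest variation within a region was seen in few miRNAs, while 164 of the 283 had a larger SD in nasal than in temporal. An SD above 1 on the log2 scale in either region was found for 10 of the 283, 7 of them with the larger SD in nasal, and 4 of the 10 were called. Temporal replicate 2 was below the mean of the other temporal libraries by 1.73 for miR-182, 1.85 for miR-96 and 1.71 for miR-183-5p, and above it by 1.98 for miR-100-5p. In those 4 miRNAs it lay toward the nasal libraries. Without temporal replicate 2, 56 miRNAs were called, 50 of them among the 80.

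The 56 miRNAs under 5 TPM were left out of the tests above. With no filter, all 339 were tested, and 100 were called, 49 higher and 51 lower, including all 80. The share called varied with level: 23.0% of 74 members between 5 and 20 mean TPM, 26.4% of 91 between 20 and 100, 35.1% of 77 between 100 and 1000, and 29.3% of 41 above. The median SE was 0.23 in the lowest of these classes and 0.18 in the highest. In the highest class, 4 were higher in temporal (miR-103-3p, miR-30a-5p, miR-27b-3p and miR-340-5p) and 8 lower. MiR-340-5p had 1506, 1318 and 1222 rescaled TPM in temporal and 953, 879 and 760 in nasal, and its call was lost without temporal replicate 1 or nasal replicate 3 (adjusted p up to 0.103).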

How the data were processed

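The authors sequenced NEBNext small RNA libraries of the 6 punches on a NextSeq 500, counted reads against miRBase release 20 and deposited whole-number TPM, which were treated as a score and not as counts. The study's methods name Bowtie2, TopHat and Cufflinks without saying whether they were used for the miRNA libraries, and how reads that match several miRNAs were divided is not stated. Deposited columns of the authors' fold changes and p-values were not used. For mRNA, the authors deposited at 50 days 1 mean signal for each region, in CPM, with no libraries behind it. The members and lists were chosen with earlier results of these data known.

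Values were divided by median-ratio size factors (0.678 to 1.36) and tested in limma 3.58.1 (eBayes with trend, R 4.3.3) on log2(value + 1), which understates the change of low miRNAs, with Benjamini-Hochberg adjustment over 283 miRNAs. The arms of a hairpin were compared by fitting 5p minus 3p log2 values over 62 hairpins. An exact permutation test of 3 against 3 libraries cannot go below p = 0.1. A miRNA was called at an adjusted p under 0.05. Named miRNAs were the 12 called per direction with the largest log2 difference and no overlap, the 12 most abundant, the 8 with intervals nearest 0 at 100 TPM or more, list members, the 6 hairpins with the largest arm contrast, hosts, and miRNAs that changed call. MiR-340-5p was named after its values were seen. Deviations of same-numbered temporal and nasal libraries from their region means correlated at 0.50, 0.16 and 0.12 for replicates 1, 2 and 3. All are over 0.1, so the numbers were taken as a pairing, from the data and not from the labels. Temporal replicate 3 and nasal replicate 2, with unlike numbers, correlated at 0.22, so these values do not settle the pairing. A fit with the replicate block was run beside the unblocked one. Scripts were tested on simulated data. Python 3.11.15, pandas 2.3.3 and Matplotlib 3.10.9 were used. Other alternatives varied the scaling, pseudocount, filter, variance model and libraries.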

Additional observations from a re-analysis of the deposited data

How the results depend on the processing

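All 80 calls kept their sign under every alternative run except with TPM as deposited, where 78 did: miR-125a-5p stood at 0.00492 and miR-330-3p at 0.02. With TPM as deposited, 77 miRNAs were called higher and 3 lower, the temporal libraries were all above for 118 and all below for 11, and 41 of the 80 were still called. The median miRNA stood at 0.52 there. The share of calls that were higher was 96.3% there and 58.0% after scaling to the total, against 47.5%. Leaving out 1 library gave 35 to 107 calls in all, 12 to 48 higher and 23 to 59 lower, and 33 of the 80 were called in all 6 of these fits. Arm contrasts numbered 21 to 34 without 1 library. With the replicate block 90 miRNAs were called, 77 of them among the 80, and beyond the changes given in the report it ended the call of miR-374a-3p (adjusted p = 0.0581) and added 5: miR-130b-5p (0.0319), miR-490-5p (0.0326), miR-671-3p (0.0223), miR-7205-3p (0.0160) and miR-1247-3p (0.0403). Blocking by consecutive sample codes, whose meaning is not given, left 54 calls, 24 of them higher and 53 of them among the 80. Array weights gave 112. Pseudocounts of 0.5 and 5, robust variances, no trend and a minimum of 20 TPM kept every count within 1.5 times, the last with 63 of the 80 tested. Corrections for base composition were not run because no miRNA sequences were at hand. Depth is unknown, and values of a few TPM rest on whole numbers, so low miRNAs are coarse.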
